A study of Mus musculus with 6 samples.

Results

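The enzymes that activate fatty acids and break them down by beta oxidation were examined in sorted mouse parietal cells, which secrete acid in the stomach, with and without a noggin transgene. The set holds 32 genes chosen by name for their place in the pathway, of 23284 genes in the deposited table, and all 32 have a row in it. Gene expression was measured by RNA sequencing in 6 libraries, 3 of control and 3 of noggin mice, each labelled a biological replicate. Noggin mice (genotype Transgenic-Tom-nog) carried H+/K+-Nog, H+/K+-Cre and the Rosa26-tdTom allele: the promoter of the parietal cell proton pump drives both noggin, which binds bone morphogenetic proteins (BMPs) outside the cell and blocks them, and the Cre recombinase that switches on the red protein tdTomato. Control mice are labelled Transgenic-Tom, without nog in the name, and their cross is not spelled out. In both groups cells with the tdTomato label were sorted by flow cytometry. Age, sex and whether a library holds 1 animal or a pool were not stated, so p-values measure the spread between libraries, which may be partly technical. The comparison asks how parietal cells respond when BMP signalling is blocked.

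Long-chain fatty acids enter oxidation once acyl-CoA synthetases have joined them to coenzyme A. The carnitine shuttle carries the acyl groups across the inner mitochondrial membrane, where acyl-CoA dehydrogenases, hydratases, hydroxyacyl-CoA dehydrogenases and thiolases shorten the chain in repeated rounds, and electrons pass through the electron transfer flavoprotein to the respiratory chain. Parietal cells are densely packed with mitochondria, which supply the ATP that the proton pump uses.

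Of the 32 genes, 26 had an entry in the RefSeq promoter table (GRCm38.p6, the build also called mm10), with 28 windows of 300 bases, 250 before and 50 after a transcription start. Windows are printed 5′ to 3′ on the strand of the gene. The genes of the trifunctional protein, Hadha and Hadhb, lie head to head on chromosome 5 with RefSeq starts 273 bases apart. Their windows share 228 bases, shown because the stretch lies between the starts of the genes of both subunits. Capitals in the Hadhb window (chr5:30155003-30155302, plus strand) mark the bases that are also in the Hadha window.
Hadhb: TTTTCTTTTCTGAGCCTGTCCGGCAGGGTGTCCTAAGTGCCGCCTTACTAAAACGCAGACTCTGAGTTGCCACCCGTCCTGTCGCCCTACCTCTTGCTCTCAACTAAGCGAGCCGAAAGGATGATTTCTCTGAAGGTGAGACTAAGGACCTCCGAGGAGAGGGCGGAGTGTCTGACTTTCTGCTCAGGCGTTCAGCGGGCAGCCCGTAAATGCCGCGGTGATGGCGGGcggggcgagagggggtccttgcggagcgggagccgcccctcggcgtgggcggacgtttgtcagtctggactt

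The windows of the 3 genes that were called lower in noggin libraries are given next, because they were the genes of the set called in the comparison below. They lie at chr8:46470787-46471086 (plus strand, the more upstream of its listed starts), chr7:131410351-131410650 (plus strand) and chr4:106804958-106805257 (minus strand, again the more upstream start).
Acsl1: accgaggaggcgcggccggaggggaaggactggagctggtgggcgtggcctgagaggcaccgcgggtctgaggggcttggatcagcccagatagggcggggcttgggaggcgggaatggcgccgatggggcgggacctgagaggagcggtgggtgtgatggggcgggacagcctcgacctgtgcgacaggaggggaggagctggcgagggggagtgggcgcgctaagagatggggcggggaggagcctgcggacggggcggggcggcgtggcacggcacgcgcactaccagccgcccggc
Acadsb: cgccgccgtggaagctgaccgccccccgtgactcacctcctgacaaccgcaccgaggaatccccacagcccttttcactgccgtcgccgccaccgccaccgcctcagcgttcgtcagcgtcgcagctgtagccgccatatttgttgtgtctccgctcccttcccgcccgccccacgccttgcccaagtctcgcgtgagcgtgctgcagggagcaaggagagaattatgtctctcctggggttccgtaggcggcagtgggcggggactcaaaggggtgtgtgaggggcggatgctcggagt
Acot11: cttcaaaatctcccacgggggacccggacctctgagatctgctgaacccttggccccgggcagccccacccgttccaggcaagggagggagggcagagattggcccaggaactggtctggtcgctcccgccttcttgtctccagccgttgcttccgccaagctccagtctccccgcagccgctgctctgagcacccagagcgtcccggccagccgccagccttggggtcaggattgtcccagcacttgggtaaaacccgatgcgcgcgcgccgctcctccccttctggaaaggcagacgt
Windows were searched on both strands for AGGTCA, the core motif of many nuclear receptors, for TCAAGGTCA, the extended motif of estrogen-related receptors, and for the direct repeat of AGGTCA with 1 base of any kind between the copies, which peroxisome proliferator-activated receptors (PPARs) bind. Both longer motifs contain the core motif. AGGTCA was present in 4 of the 28 windows (Acadm, Acadvl, Cpt1a and Echs1) and in 16.3% of the 32851 windows in the table. TCAAGGTCA was in 0 of the 28 windows and in 0.423% of all windows, and the direct repeat in 0 and in 0.0396%. None of the 3 windows above holds the core motif. It starts 94 bases before the RefSeq start of Cpt1a (chr19:3323051-3323350, plus strand), on the opposite strand. For Acadvl (chr11:70015379-70015678, minus strand) it starts 87 bases before the RefSeq start, on the strand of the gene. The GENCODE M21 annotation, used here for lengths, begins Cpt1a at 3322334, upstream of the whole window. The motif is in capitals.
Cpt1a: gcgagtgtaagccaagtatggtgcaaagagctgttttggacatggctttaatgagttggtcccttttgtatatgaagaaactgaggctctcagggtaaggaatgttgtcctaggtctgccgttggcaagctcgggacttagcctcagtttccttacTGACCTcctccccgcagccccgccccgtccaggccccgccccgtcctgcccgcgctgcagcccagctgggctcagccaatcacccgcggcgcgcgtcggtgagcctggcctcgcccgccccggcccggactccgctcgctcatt
Acadvl: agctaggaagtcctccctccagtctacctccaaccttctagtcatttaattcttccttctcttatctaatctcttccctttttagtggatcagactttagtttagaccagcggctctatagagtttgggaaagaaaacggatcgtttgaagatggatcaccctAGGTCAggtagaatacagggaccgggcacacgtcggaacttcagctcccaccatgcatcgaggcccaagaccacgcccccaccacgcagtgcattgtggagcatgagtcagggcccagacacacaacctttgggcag
The windows of the set were rich in CpG, with a median of 17 CpG dinucleotides against 7 over all windows and a range from 4 to 34.

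Values are FPKM, fragments per kilobase of transcript and per unit of mapped fragments, as deposited, and differences are on the log2(FPKM + 1) scale, noggin minus control, tested with limma over all 10644 genes that reached 1 FPKM in at least 3 libraries. Values given in a row of 3 are those of replicates 1, 2 and 3. Most of the set was well expressed: 22 of the 32 genes had a control mean of at least 50 FPKM and 14 of at least 100 FPKM. In noggin libraries Acsl1, Acadsb and Acot11 were called lower, at a Benjamini-Hochberg adjusted p under 0.05, and 0 genes of the set were called higher. Across all tested genes 0.695% were called lower and 1.75% higher. Of the 32 genes 31 passed the filter on low values, all but Cpt1b, and 28 of these were not called.

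The direction of the fold changes was uneven: 23 of 31 were negative and 8 positive, against 51.7% negative among all tested genes. The median log2 fold change was -0.35, and that of all tested genes -0.03, a distance of -0.32. Without noggin replicate 1 the median of the set was -0.12 and the distance -0.13. All 3 noggin libraries lay below all 3 controls for 10 of the 31 tested genes, and above them for 3, while 18.0% of all tested genes were lower and 20.3% higher without overlap. With no adjustment, p was under 0.05 for 7 genes below and 2 above, beside 10.9% and 15.8% of all tested genes. The summed level of the set was 4054, 4681 and 4501 FPKM in controls against 4524, 4364 and 4261 FPKM with noggin. As a share of all FPKM in a library this was 0.640%, 0.700% and 0.756% in controls and 0.382%, 0.548% and 0.359% in noggin libraries, whose totals were higher.

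**Figure D1:**
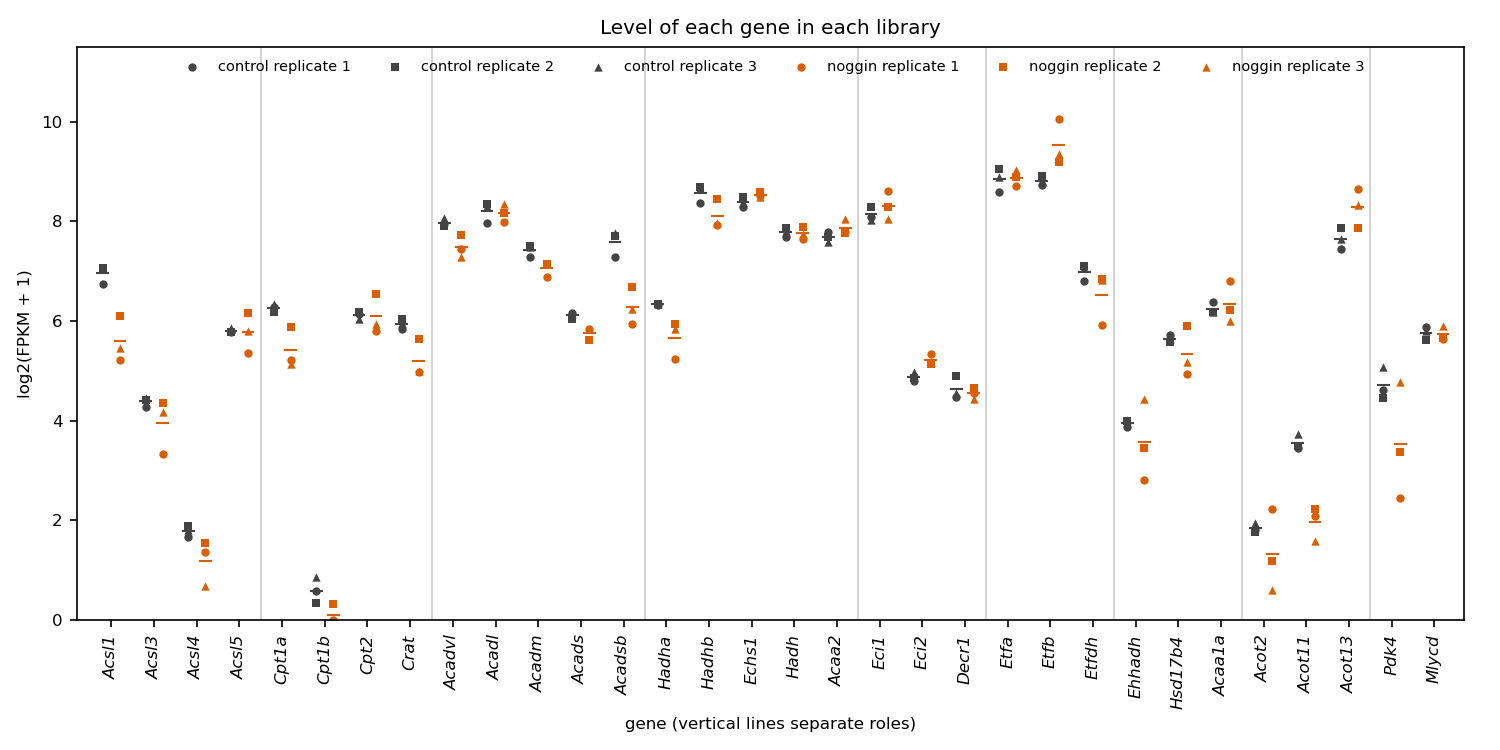
Level of each of the 32 genes in each library, as log2(FPKM + 1) on a linear axis, ordered by role; grey marks are control and orange marks noggin libraries, the marker shape gives the replicate and short lines are group means. Control marks lie close together for most genes. All noggin marks lie below the controls for 10 of the 31 tested genes, among them Acsl1, Acadsb and Acot11, beside 18.0% of all tested genes.

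These calls depended on the libraries used. Without control replicate 1, 2 or 3, or without noggin replicate 1, 0 genes of the set were called, while over all tested genes 2, 39, 2 and 35 were called higher and 0, 0, 0 and 19 lower. Without noggin replicate 2, 6 were called lower (Acadsb, Acadvl, Acot11, Acsl1, Cpt1a and Crat, with 7.99% of all tested genes) and Acot13 was called higher (with 11.0%). Noggin replicate 3 stood furthest apart, with Spearman correlations across genes of 0.802 to 0.846 with the other libraries against 0.9751 to 0.9796 between controls. Noggin replicates 1 and 2 correlated with the controls at 0.8682 to 0.8795 and at 0.9222 to 0.9306, and with each other at 0.9107. Leaving out noggin replicate 3 gave 2 lower genes, Acot11 and Pdk4, and 0 higher, with 2.29% and 2.36% of all tested genes. Acsl1 was then at -1.30 (limma adjusted p = 0.0567), Acadsb at -1.28 (limma adjusted p = 0.0583) and Acot11 at -1.40 (limma adjusted p = 0.0328). With a pseudocount of 0.1, without the filter on low values and without the mean-variance trend of the fit 0 genes of the set were called, among 111, 12 and 83 called over all genes. Scaling also mattered. With libraries rescaled to the same total 10 genes of the set were called lower and 0 higher (7.58% and 1.17% of all tested genes). In that fit the median of all tested genes moved to -0.62, and 81.9% of their fold changes were negative. So were those of all 31 tested genes of the set. With quantile normalization 8 genes of the set were called lower and 0 higher (2.17% and 2.28%). The 8 genes were Acsl1, Acadsb, Acot11, Cpt1a, Crat, Hadha, Acadvl and Acadm, and rescaling added Acads and Hadhb.

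Total FPKM ran from 595736 to 669124 in controls and from 797168 to 1188186 in noggin libraries, and the read depth is unknown. All 13 parietal cell markers were tested, with a summed level of 34399 to 41364 FPKM in controls and of 32374 to 35717 FPKM with noggin (2 called lower). Of their log2 fold changes 10 were negative and 3 positive, with a median of -0.51, and a few abundant markers can dominate the sum. Sums were higher in every noggin library for markers of mucous neck cells, at 2473 to 3378 FPKM in controls against 10790 to 25875 FPKM with noggin (5 of 6 tested called higher), of chief cells, at 61029 to 112115 against 131524 to 358040 FPKM (2 of 10), of mast cells, at 37.4 to 63.3 against 186 to 284 FPKM (5 of 7, with Kit lower), and of leukocytes, at 6.88 to 8.12 against 39.4 to 284 FPKM (1 of 5). Sums overlapped for enteroendocrine markers, at 447 to 2712 against 1917 to 28765 FPKM (2 of 10 called higher), and for surface pit cell markers, at 22467 to 26719 against 23736 to 50124 FPKM (0 of 8). Stromal markers summed to 1.28 to 1.84 against 1.89 to 7.60 FPKM and erythroid markers to 0.350 to 3.40 against 5.80 to 63.9 FPKM, with 0 of 1 tested called in each. Of the 8 adipocyte markers 4 were under 1 FPKM in every library: Adipoq, Plin1, Retn and Cfd, the last listed at 0 in all. Cidec, Lep and Fabp4 reached 1 FPKM in some library, and of the 8 markers 1 passed the filter on low values. The list sum of 19.6 to 22.0 against 18.2 to 27.4 FPKM was mostly Pparg. The part of these cells in the results was not tested, and in such bulk samples fewer cells of a type and less RNA per cell cannot be told apart.

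Among the acyl-CoA synthetases Acsl1 had the highest level in controls, and its product supplies acyl-CoA for oxidation and lipid synthesis. In controls Acsl1 averaged 124 FPKM, Acsl5 55.0, Acsl3 19.9 and Acsl4 2.46 FPKM. Acsl1 (chromosome 8, 46471037 to 46536051, plus strand, in mm10) was at 107, 132 and 132 FPKM in controls against 36.4, 67.3 and 43.0 FPKM with noggin. Every noggin library was below every control, with noggin replicate 2 nearest to them. Acsl1 fell by 1.36 on the log2 scale (limma adjusted p = 0.0444, SE 0.255), which placed it in the lowest 3.24% of fold changes of all tested genes. Acsl5, the synthetase of the mitochondria and endoplasmic reticulum, was at 54.1, 54.1 and 56.8 FPKM in controls against 40.0, 70.7 and 54.5 FPKM with noggin, on both sides of the controls. Its log2 fold change was -0.04 (95% interval -0.58 to 0.51). The order of the levels of Acsl1 and Acsl5 differed between groups: Acsl1 was the higher in all 3 controls, and Acsl5 in all 3 noggin libraries. Acsl3, found on lipid droplets, and Acsl4, which favours arachidonic acid, had log2 fold changes of -0.43 and -0.60 and did not pass the test (limma adjusted p = 0.390 and 0.278).

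Of the outer membrane acyltransferases that limit the rate of the carnitine shuttle, Cpt1a, the liver isoform, was expressed well above Cpt1b, the muscle isoform. Cpt1a was at 76.7, 72.0 and 79.8 FPKM in controls against 36.3, 57.5 and 34.1 FPKM with noggin. The groups did not overlap, and the controls spanned a narrow range. Its log2 fold change of -0.86 did not pass the test (limma adjusted p = 0.0919, SE 0.234), and it was called at -1.56 with rescaling (limma adjusted p = 0.0416) and at -1.17 with quantile normalization (limma adjusted p = 0.0365). After removal of the length trend described below, Cpt1a was at -0.46 (limma adjusted p = 0.224). Cpt1b was at 0.484, 0.267 and 0.805 FPKM in controls, at 0.246 FPKM in noggin replicate 2 and listed at 0 in noggin replicates 1 and 3, and it was not tested. Of its 50-base stretches, the length of a read, 93.0% also occur in transcripts of Gm44502, so even this low level is uncertain. The inner membrane enzyme Cpt2, which returns the acyl group to coenzyme A, was at 69.3, 71.2 and 64.7 FPKM in controls against 54.8, 92.3 and 60.4 FPKM with noggin, which overlapped (log2 fold change -0.02, 95% interval -0.55 to 0.51). Crat, which moves short acyl groups and acetyl units to carnitine, was at 56.2, 64.5 and 61.5 FPKM in controls against 30.4, 48.9 and 30.7 FPKM with noggin. Here the groups were again separate, and the log2 fold change was -0.75 (limma adjusted p = 0.111, SE 0.232), called at -1.44 with rescaling (limma adjusted p = 0.0432) and -1.02 with quantile normalization (limma adjusted p = 0.0460). With the length trend removed Crat was at -0.36 (limma adjusted p = 0.311). In these genes noggin replicate 2 was the highest noggin library each time. The log2 ratio of Cpt1a to Cpt1b was 5.68 ± 0.184 (SD, n = 3) in controls and 5.30 ± 0.221 in noggin libraries (two-sided exact permutation p = 0.2, where 0.1 is the smallest that 3 against 3 libraries allow), and the sign of its difference turned with the pseudocount.

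The acyl-CoA dehydrogenases carry out the initial step of each round, each on its own range of chain lengths. Acadsb, which acts on short branched chains from isoleucine, was the only 1 of these 5 genes called lower. Acadsb (chromosome 7, 131410601 to 131448944, plus strand) was at 156, 209 and 215 FPKM in controls against 59.9, 102 and 74.3 FPKM with noggin. The lowest control was above the highest noggin library, and the log2 fold change was -1.30 (limma adjusted p = 0.0446, SE 0.245). Acadvl, the very-long-chain enzyme of the inner membrane, was at 244, 239 and 269 FPKM in controls against 174, 209.6 and 154 FPKM with noggin. Acadm, the medium-chain enzyme, was at 155, 180.3 and 178 FPKM in controls against 117, 140.2 and 140.3 FPKM with noggin. Acads, the short-chain enzyme, was at 70.5, 64.8 and 69.1 FPKM in controls against 56.2, 47.8 and 56.0 FPKM with noggin. None of these 3 genes overlapped between groups, yet their log2 fold changes of -0.49, -0.37 and -0.35 did not pass the test (limma adjusted p = 0.147, 0.215 and 0.227). With rescaling they were called at -1.21, -1.08 and -1.06, and with quantile normalization Acadvl and Acadm were called at -1.06 and -0.88. With the length trend removed Acadvl, Acadm and Acads were at -0.60, -0.52 and -0.58 (limma adjusted p = 0.0767, 0.139 and 0.133). Acadsb was not called in that fit either, at -0.80 (limma adjusted p = 0.0959). Acadl, the long-chain enzyme, differed from the other 4 in that its groups overlapped, at 249.6, 324 and 318 FPKM in controls against 254, 288 and 324 FPKM with noggin (log2 fold change -0.04, 95% interval -0.49 to 0.42). Of the transcript stretches of Acadvl, 24.0% are also in transcripts of its neighbour Dvl2.

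Of the 5 enzymes that follow the dehydrogenases 0 were called. Hadha, the alpha subunit of the trifunctional protein with hydratase and dehydrogenase activity, was at 79.0, 79.6 and 80.6 FPKM in controls against 36.7, 59.9 and 55.9 FPKM with noggin. All noggin libraries were below the controls, whose values were nearly equal, and the log2 fold change was -0.67 (limma adjusted p = 0.122, SE 0.222), called at -1.37 with rescaling (limma adjusted p = 0.0419) and -0.999 with quantile normalization (limma adjusted p = 0.0447). With the length trend removed Hadha was at -0.31 (limma adjusted p = 0.380). Hadhb, the thiolase subunit, was at 329, 412 and 405 FPKM in controls against 241, 347 and 249 FPKM with noggin. Noggin replicate 2 lay above control replicate 1, so these groups overlapped (log2 fold change -0.46, limma adjusted p = 0.2097, SE 0.215), with a call at -1.18 after rescaling (limma adjusted p = 0.0488). With the length trend removed Hadhb was at -0.62 (limma adjusted p = 0.118). The log2 ratio of Hadha to Hadhb was -2.24 ± 0.170 in controls and -2.44 ± 0.279 in noggin libraries (SD, n = 3 each, two-sided exact permutation p = 0.4). Its difference turned from -0.20 to 0.30 after removal of the length trend described below (p = 0.3 by the same exact test). Both genes of the head-to-head pair printed above had negative fold changes. The level of Hadhb is uncertain because 62.4% of its 50-base stretches occur in other transcripts, mainly Gm13910. Echs1, the short-chain hydratase, was at 309.6, 356 and 334 FPKM in controls against 363, 383 and 359 FPKM with noggin, with every noggin library above every control but a log2 fold change of 0.14 (95% interval -0.25 to 0.54). Hadh, the dehydrogenase of shorter hydroxyacyl chains, and Acaa2, the mitochondrial thiolase, overlapped between groups, at 220.1 ± 15.1 and 216 ± 17.6 FPKM for Hadh and 205 ± 13.8 and 232 ± 25.5 FPKM for Acaa2 (mean ± SD, n = 3, controls and noggin libraries).

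Auxiliary enzymes reshape unsaturated chains for the main cycle, and 0 of these 3 genes were called. Eci1 and Eci2, isomerases that move a double bond, had log2 fold changes of 0.17 (SE 0.208) and 0.35 (SE 0.183), and Decr1, the dienoyl-CoA reductase, of -0.09 (SE 0.214). Eci2 was at 26.8, 27.9 and 30.3 FPKM in controls against 39.3, 34.1 and 35.4 FPKM with noggin, so its groups did not overlap, although the difference did not pass the test (limma adjusted p = 0.2598) and turned to -0.35 with rescaling to the same total.

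The electron transfer flavoprotein had the highest levels in the set, and its subunits differed in their values. Etfa was at 385, 528 and 473 FPKM in controls against 419, 474 and 523 FPKM with noggin, which overlapped (log2 fold change 0.04, 95% interval -0.44 to 0.52). Etfb was at 426, 479 and 446 FPKM in controls against 1059, 582 and 651 FPKM with noggin. Every noggin library was above the controls, with replicate 1 far above the others, and the log2 fold change of 0.71 did not pass the test (limma adjusted p = 0.142, SE 0.262). It was -0.003 with rescaling, -0.04 with quantile normalization and -0.05 after removal of the length trend, but 0.41 when that trend was removed with the median length over all transcripts of a gene. Without noggin replicate 1 it was 0.45. The log2 ratio of Etfa to Etfb was -0.148, 0.140 and 0.0856 in controls and -1.34, -0.296 and -0.317 in noggin libraries. Noggin ratios were all below the controls (two-sided exact permutation p = 0.1, the smallest possible), and after removal of the length trend the difference went from -0.68 to -0.39 (p = 0.2 by the same exact test). Without noggin replicate 1 the difference was -0.33. Of the Etfb stretches 67.3% are shared with Gm45233, which makes its level uncertain. Etfdh, which passes the electrons on to ubiquinone, was at 111, 136 and 132 FPKM in controls against 59.9, 114 and 111 FPKM with noggin. Noggin replicate 1 was below all controls and the other noggin libraries lay between control replicates 1 and 3, with a log2 fold change of -0.45 (limma adjusted p = 0.313, SE 0.274).

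**Figure D2:**
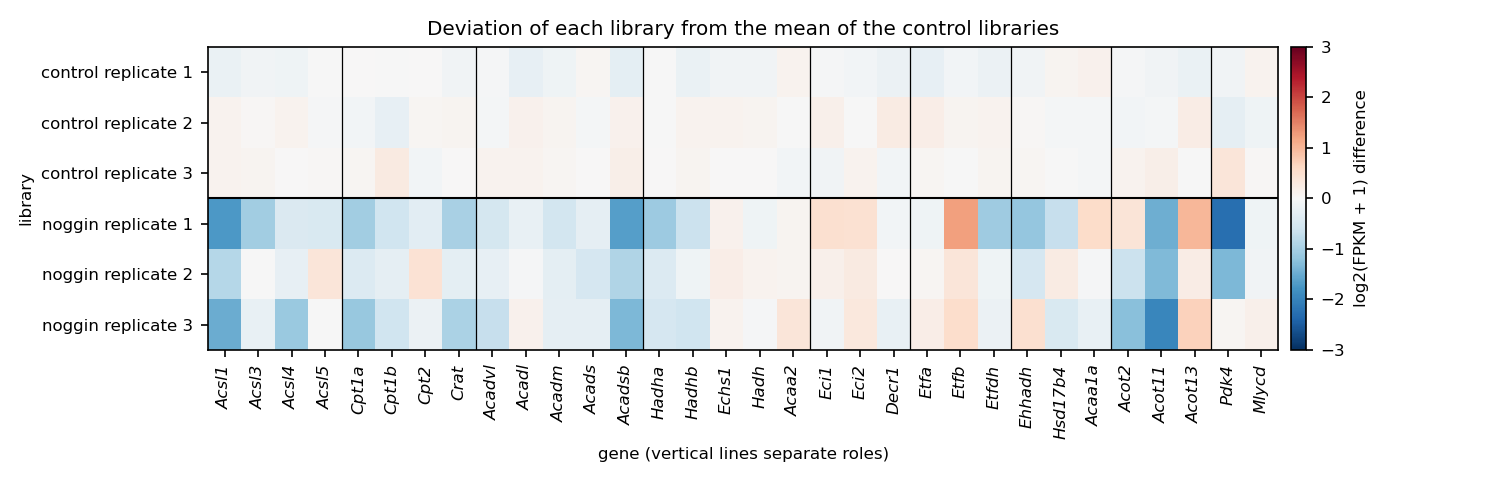
Deviation of every library (rows) from the mean of the 3 control libraries, in log2(FPKM + 1), for the 32 genes ordered by role (columns); blue is below and red above the control mean. The deepest blue is Pdk4 in noggin replicate 1, and Etfb and Acot13 are red in that library.

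Peroxisomes shorten very long chains by a parallel route, and 0 of these 3 enzymes were called. Ehhadh, a hydratase and dehydrogenase that PPAR alpha is known to induce, was at 13.5, 15.0 and 15.2 FPKM in controls against 5.96, 9.98 and 20.6 FPKM with noggin. Noggin libraries lay on both sides of the controls (log2 fold change -0.40, limma adjusted p = 0.555, SE 0.409). Hsd17b4 of the same step averaged 49.1 ± 2.44 FPKM in controls against 41.1 ± 15.1 FPKM with noggin, and the thiolase Acaa1a 74.9 ± 5.98 and 82.2 ± 24.4 FPKM (mean ± SD, n = 3). In both genes the spread between noggin libraries was far wider than between controls. Acaa1a shares 35.1% of its stretches with other transcripts, mostly of Acaa1b.

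The thioesterases, which release fatty acids from coenzyme A, had fold changes of both signs. Acot11, known from brown fat and able to act on long-chain acyl-CoA, fell. Acot11 (chromosome 4, 106744555 to 106804998, minus strand) was at 9.91, 10.2 and 12.2 FPKM in controls against 3.24, 3.70 and 2.01 FPKM with noggin. Its groups were well separated, and the log2 fold change of -1.58 was the lowest of the set (limma adjusted p = 0.0478, SE 0.306). It lay in the lowest 1.62% over all tested genes, and 19.0% of its stretches are shared with the neighbouring gene Fam151a. Acot13, a small thioesterase attached to mitochondria, was at 173, 233 and 198 FPKM in controls against 400.4, 232 and 322 FPKM with noggin. Noggin replicate 2 was inside the control range, and the log2 fold change of 0.63 did not pass the test (limma adjusted p = 0.154, SE 0.245), was called without noggin replicate 2 (0.84, limma adjusted p = 0.0397) and was negative with rescaling (-0.08) and after removal of the length trend (-0.23). Acot2, the mitochondrial matrix thioesterase, was at 2.499, 2.39 and 2.85 FPKM in controls against 3.65, 1.27 and 0.509 FPKM with noggin, a spread that spanned the controls, and it shares 27.7% of its stretches with Acot1 and other transcripts.

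The choice between sugar and fat is set in part by Pdk4, the kinase that shuts off pyruvate dehydrogenase when fat is burned, and by Mlycd, which removes malonyl-CoA, the inhibitor of Cpt1a. Pdk4 was at 23.4, 20.9 and 32.8 FPKM in controls against 4.48, 9.34 and 26.4 FPKM with noggin. Noggin replicates 1 and 2 were below all controls and noggin replicate 3 was among them. The log2 fold change of -1.18 had a wide error (limma adjusted p = 0.2098, SE 0.546), and without noggin replicate 3 it was called at -1.80 (limma adjusted p = 0.0438, SE 0.332). Without noggin replicate 1 it was -0.64 (limma adjusted p = 0.358). Mlycd was at 57.5, 48.4 and 54.4 FPKM in controls against 48.6, 49.4 and 59.1 FPKM with noggin, with full overlap (log2 fold change -0.03, 95% interval -0.45 to 0.39).

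**Figure D3:**
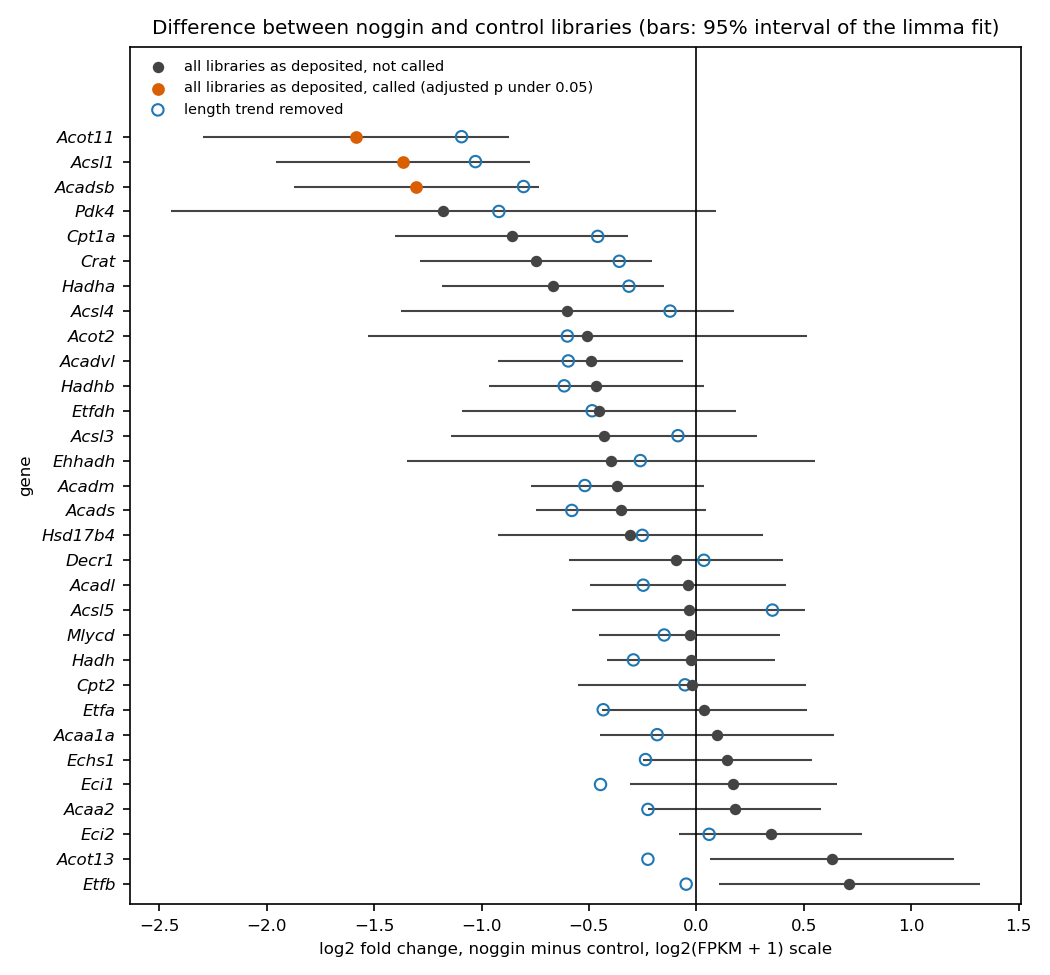
Log2 fold change of the 31 tested genes, noggin minus control on the log2(FPKM + 1) scale, with 95% intervals of the limma fit; filled points use the values as deposited (orange when called) and open circles the values after removal of the length trend. Acot11, Acsl1 and Acadsb have the lowest fold changes, from -1.58 to -1.30, and Etfb has the highest at 0.71.

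Fold changes within the set followed transcript length. Across the 31 tested genes log2 fold change and length of the principal transcript had a Spearman correlation of -0.844, and over the 10542 tested genes with a length of -0.544. These points share the same 6 libraries and are not independent. The shortest transcripts, Acot13 with 721 and Etfb with 893 bases, had the highest fold changes, and the longest, Acadsb with 6081 and Acot11 with 5689 bases, were among the 3 lowest. Per library, the deviation from the control mean correlated with length at -0.801, -0.562 and -0.669 over the set in noggin replicates 1, 2 and 3.

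Set beside genes of like length, most of the pathway lay lower. Below 1500 bases 3 of 4 genes of the set were under the median of all tested genes in that range (0.67), from 1500 to 2500 bases 13 of 14 (0.18), from 2500 to 4000 bases 5 of 6 (-0.20), and from 4000 bases 6 of 7 (-0.49). Called lower were 0.404%, 0.157%, 0.557% and 1.52% of all tested genes in these ranges. After removal of the length trend from each library 28 of the 31 fold changes were negative, with a median of -0.29 against -0.01 over all tested genes, of which 50.8% were negative, and the correlation with length was -0.237. In that fit 0 genes of the set were called (0.169% of all tested genes were called lower and 0.573% higher), and 9 were below and 0 above at an unadjusted p under 0.05, beside 7.15% and 10.1% of all tested genes. Acsl1 was then at -1.03 (limma adjusted p = 0.0513, SE 0.175), Acot11 at -1.09 (limma adjusted p = 0.118, SE 0.279) and Acadsb at -0.80 (limma adjusted p = 0.0959, SE 0.183). The result depended on how length was defined. With the median length over all annotated transcripts of a gene, an alternative chosen after seeing the data, 23 of the 31 fold changes were negative, as without removal, beside 50.3% of all tested genes. Acsl1, Acadsb and Acot11 were then all called, at -1.52, -1.50 and -1.83 (limma adjusted p = 0.0394 for each), and 0 genes of the set higher, beside 0.451% of all tested genes lower and 1.14% higher. That definition gave these 3 genes 673, 632 and 596 bases, against 3897, 6081 and 5689 for the principal transcript. Such a fit cannot show whether their calls hold beside genes of like principal length. The part of length in the group difference was not tested beyond these fits.

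**Figure D4:**
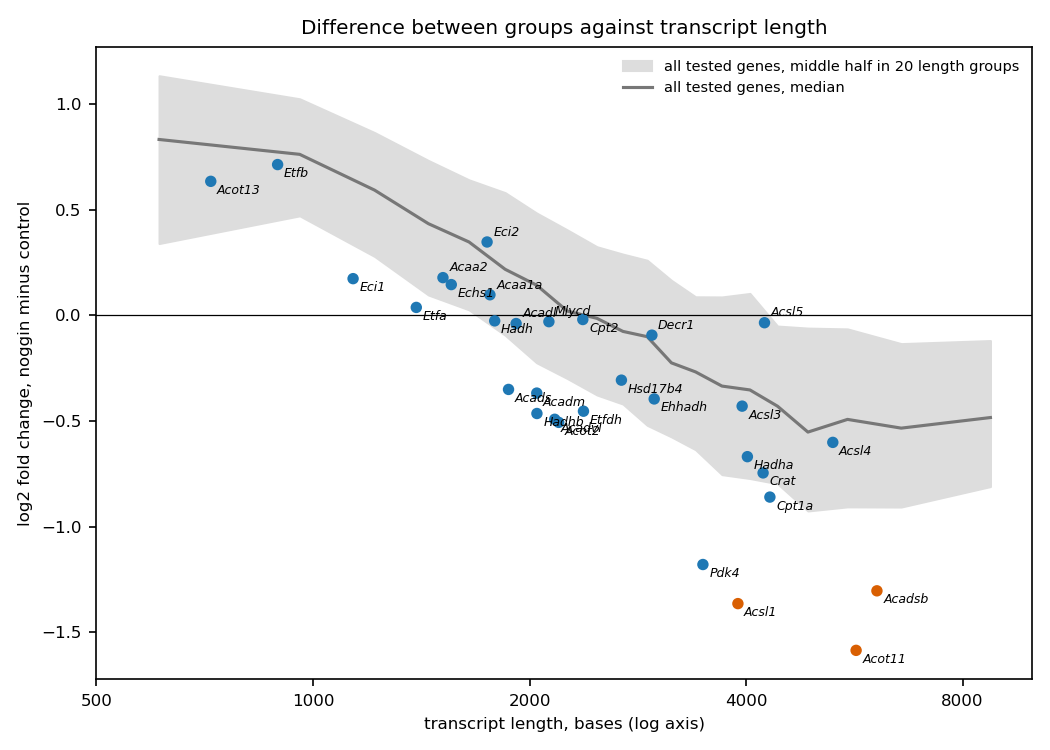
Log2 fold change (noggin minus control) of the 31 tested genes against transcript length in bases on a log axis, orange when called; the grey line and band are the median and the middle 50% of all tested genes in 20 groups of length. Short transcripts such as Acot13 and Etfb sit at the top left and Acadsb and Acot11 at the bottom right, and most points lie below the grey line.

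In neighbouring lists of fat metabolism genes, the counts of calls stand beside the 0.695% of all tested genes called lower and the 1.75% called higher. Among 34 tested further genes of mitochondrial oxidation and activation, Ivd was called lower and 0 were called higher, with a median log2 fold change of -0.23. Ivd, the isovaleryl-CoA dehydrogenase of leucine breakdown, fell from 138 ± 11.4 FPKM to 59.8, 75.8 and 71.5 FPKM with noggin (log2 fold change -0.996, limma adjusted p = 0.0428, SE 0.177). Acss1, which activates acetate in mitochondria, was at 78.6 ± 6.64 FPKM in controls against 33.5, 36.8 and 10.2 FPKM with noggin without passing the test (log2 fold change -1.70, limma adjusted p = 0.0852, SE 0.442). Acad11, a dehydrogenase of long chains, and Mut, the methylmalonyl-CoA mutase, were at -1.03 and -0.93 (limma adjusted p = 0.0961 and 0.0829). Of 25 tested peroxisomal genes 0 were called, at a median of -0.17, with Cat, the catalase, at -0.87 (limma adjusted p = 0.117), and Pex5 and Pex6, which import peroxisomal proteins, at -0.82 and -0.97 (limma adjusted p = 0.104 and 0.118). Scp2, the sterol carrier protein with a peroxisomal thiolase form, was above the controls in every noggin library, at 181, 223 and 207 FPKM in controls against 272, 303 and 271 FPKM with noggin, and did not pass the test (log2 fold change 0.47, limma adjusted p = 0.142). It was at 0.51 after removal of the length trend and at -0.24 with rescaling.

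For uptake and storage of fat the calls went both ways. Of 16 tested genes of fatty acid uptake and binding, Lpl was called lower and 0 higher, at a median of -0.26. Lpl, the lipoprotein lipase, fell from 394 ± 94.5 FPKM to 150.1, 193 and 167 FPKM (log2 fold change -1.19, limma adjusted p = 0.0483, SE 0.233). Dbi, the acyl-CoA binding protein, was at 480 ± 83.2 FPKM in controls against 1935, 736 and 1439 FPKM with noggin, above them each time, but did not pass (log2 fold change 1.42, limma adjusted p = 0.0832). Fabp5, a fatty acid binding protein, and Acbd5, an acyl-CoA binding protein of peroxisomes, were at 1.03 and -1.11 (limma adjusted p = 0.103 and 0.101). Of 13 tested lipid droplet and lipolysis genes 2 were called higher, Cidea and Hilpda, and 0 lower, at a median of 0.15. Cidea, a lipid droplet protein, rose from 0.510 ± 0.146 FPKM to 3.01, 6.27 and 8.19 FPKM (log2 fold change 2.10, limma adjusted p = 0.0429, SE 0.379), and Hilpda, which restrains lipolysis, from 11.4 ± 0.624 FPKM to 37.9, 23.1 and 42.7 FPKM (1.48, limma adjusted p = 0.0442, SE 0.274). Plin5, which ties droplets to mitochondria, was at 4.13 ± 0.209 FPKM in controls against 0.503, 1.57 and 0.178 FPKM with noggin (log2 fold change -1.63, limma adjusted p = 0.0647, SE 0.362), and Dgat2, which makes triglyceride, was at -0.71 (limma adjusted p = 0.134).

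Among ketone body genes 0 of 7 tested were called, at a median of 0.28. Oxct1, an enzyme of ketone body oxidation, was at -0.63 (limma adjusted p = 0.124). Acat1, the acetoacetyl-CoA thiolase, was at -0.35, and the carriers Slc16a1 and Slc16a6 were at 0.33 and 0.74 (limma adjusted p = 0.379, 0.377 and 0.283). Regulators of the pathway had a median of -0.40 over 27 tested genes, of which Esrrg was called lower and 0 were called higher. Esrrg, an estrogen-related receptor that drives oxidative genes, fell from 121 ± 16.3 FPKM to 39.8, 67.4 and 52.7 FPKM (log2 fold change -1.19, limma adjusted p = 0.0483, SE 0.234). Ppargc1b, a coactivator of such receptors, was at 23.5 ± 0.479 FPKM in controls against 9.49, 12.4 and 2.07 FPKM with noggin, and Prkab2, a subunit of AMP-activated kinase, at 12.3 ± 2.25 FPKM and 1.90, 5.13 and 1.01 FPKM. Both were below the controls in every noggin library and did not pass the test (log2 fold changes -1.70 and -1.999, limma adjusted p = 0.111 and 0.0647). Sirt5, a mitochondrial deacylase, was above the controls in every noggin library at 0.74 (limma adjusted p = 0.124). After removal of the length trend Ivd, Lpl, Cidea, Hilpda and Esrrg were not called (limma adjusted p = 0.0656, 0.0898, 0.184, 0.172 and 0.110).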

How the data were processed

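RNA of flow-sorted tdTomato-labelled parietal cells (at least 1 ng) was turned into libraries with a SMART-Seq Ultra Low Input kit and sequenced from one end over 50 bases, per the labels' protocols. Strand is not stated, so overlapping genes cannot be told apart. The authors deposited FPKM per gene and library. The submitters' processing notes name mm10, bcl2fastq and FastQC 0.10.0, and which aligner, quantifier and annotation were used is not given in the sources used here. No read counts are given, so depth is unknown and no counting interval is printed.

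Groups and replicate numbers come from the sample titles. Values were transformed to log2(FPKM + 1). Genes that reached 1 FPKM in 3 or more libraries entered limma 3.58.1 (R 4.3.3), two-sided, with a mean-variance trend and the group as the only term, and p-values were adjusted over all tested genes by the Benjamini-Hochberg method. Ratios of 2 genes were compared by exact permutation tests. The fit was tried on simulated data in which both groups had the spread of the controls. In the deposited values the noggin SD exceeded the control SD for 24 of the 32 genes, which the simulation did not cover. Symbols were matched to GENCODE M21 (20911 by symbol, 1914 by an older one, 459 not), and a gene's length is that of its longest APPRIS principal transcript or, without one, its longest basic transcript, a definition chosen after the table had been read. The length trend was removed as a lowess curve (span 0.3) fitted per library to its differences from the average library. Shared stretches are all 50-base pieces of that transcript, on either strand, found in transcripts of another gene. The genes of the set and the lists were chosen with earlier results of these data known. Every gene of the set is accounted for, and in other lists up to 4 genes could be named, called ones by size and then by unadjusted p. Adipocyte markers and Kit are named outside this rule, after their values were seen.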

Additional observations from a re-analysis of the deposited data

How the results depend on the processing

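Acot11, Acsl1 and Acadsb kept their sign in all 16 alternatives, at -2.17 to -1.09, -2.07 to -1.03 and -2.01 to -0.80 (limma adjusted p = 0.0224 to 0.316, 0.0163 to 0.233 and 0.0163 to 0.241). The number of genes of the set called lower, 3 of 31, was 0 with a pseudocount of 0.1, without a filter on low values, without the mean-variance trend and after removal of the length trend, 3 when that trend was removed with the median length over all transcripts, 10 after rescaling to the same total and 8 with quantile normalization, and ran from 0 to 6 when 1 library was left out. The number called higher ran from 0 to 1 there. Calls over all tested genes went from 260 to 111 (pseudocount 0.1), 12 (no filter), 955 (rescaled), 474 (quantile), 83 (no trend), 79 (length trend removed) and 169 (length trend removed with the median length over all transcripts, an alternative chosen after seeing the data), and ran from 2 to 1976 with 1 library left out. The median of the set was -1.01 rescaled and -0.56 with quantile normalization, and -0.34 to -0.12 with 1 library left out, nearest to 0 without noggin replicate 1. Its distance from the median of all tested genes was -0.54 with quantile normalization and -0.33 to -0.13 with 1 library left out. The causes were not tested.

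The labels do not say whether replicate numbers pair the libraries. Same-numbered libraries deviated from their group means with correlations of 0.105, -0.141 and 0.00519, and differently numbered ones with -0.129 to 0.120. With 3 libraries per group these values cannot decide whether the numbers pair libraries. With the replicate block 160 genes were called and 2 of the set, Acadsb and Acsl1, and with the replicate block and the length trend removed 58 and 0.

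Signs of 14 uncalled genes turned in some setting. After removal of the length trend, with or without the replicate block, Echs1 was at -0.24, Etfa -0.43, Etfb -0.0473, Acaa1a -0.18, Acaa2 -0.23, Eci1 -0.45, Acot13 -0.23, Decr1 0.0352 and Acsl5 0.35, and the difference in the ratio of Hadha to Hadhb was 0.30. With the median length Hadh was at 0.29, Mlycd 0.235, Etfa -0.10 and Acaa1a -0.0436. Rescaled, Echs1 was at -0.57, Etfa -0.68, Etfb -0.00302, Acaa1a -0.61, Acaa2 -0.54, Eci1 -0.54, Eci2 -0.35 and Acot13 -0.0808. Quantile normalization gave -0.48 for Echs1, -0.62 for Etfa, -0.0428 for Etfb, -0.30 for Acaa1a, -0.39 for Acaa2 and -0.47 for Eci1. With a pseudocount of 0.1 the difference in the ratio of Cpt1a to Cpt1b was 1.06. With 1 library left out Etfa ran from -0.0887 to 0.14, Mlycd from -0.12 to 0.0232, Cpt2 from -0.24 to 0.13, Acadl from -0.16 to 0.0480, Hadh from -0.0879 to 0.0275, Decr1 from -0.18 to 0.0305, Acaa1a from -0.13 to 0.26 and Acsl5 from -0.23 to 0.17.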
